A study of Mus musculus with 6 samples.

Results

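The genes of the cyclin-dependent kinase (CDK) inhibitors Cdkn1a, Cdkn1b, Cdkn1c, Cdkn2a, Cdkn2b, Cdkn2c and Cdkn2d are described here, 7 of the 21853 protein-coding genes of the annotation. They were chosen by name, and every open chromatin peak within a gene or 10 kb of it, and every Tfcp2l1 peak within 200 kb of a transcription start site (TSS), was collected. Cdkn2a and Cdkn2b lie side by side and were treated as 1 interval, which gave 6 intervals. All cells were mouse embryonic fibroblasts (MEFs) of the strain C57BL/6J, primary cells put into culture from minced embryos, here without the head and the red organs. ATAC-seq, in which a transposase inserts sequencing adapters into open chromatin, was made on MEFs from E13.5 embryos with 1 library for each of 4 conditions: passage 1 cells in 20% oxygen (Norm-Pro), senescent cells in 20% oxygen (Norm-Sen), passage 1 cells in 3% oxygen (Hyp-Pro) and immortalized cells in 3% oxygen (Hyp-Imm). ChIP-seq of the transcription factor Tfcp2l1 was made with 1 library from senescent MEFs in 20% oxygen and 1 from immortalized MEFs in 3% oxygen. The label and the file name of each ATAC-seq library disagree about its condition. By the file names, Norm-Pro would be immortalized cells in hypoxia, Norm-Sen passage 1 cells in hypoxia, Hyp-Pro passage 1 cells in normoxia and Hyp-Imm senescent cells in normoxia. Each library is called by its label below, and which record is right was not settled here. No condition had a second library, so no replicate error could be given, no test was made and no difference between conditions below is shown to exceed the spread between samples.

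CDK inhibitors are the proteins that stop the cell cycle before DNA is copied. The INK4 family, p16Ink4a (from Cdkn2a), p15Ink4b (Cdkn2b), p18Ink4c (Cdkn2c) and p19Ink4d (Cdkn2d), binds Cdk4 and Cdk6 and keeps them from their D-type cyclins, so that the retinoblastoma protein stays active. The CIP/KIP family, p21Cip1 (Cdkn1a), p27Kip1 (Cdkn1b) and p57Kip2 (Cdkn1c), binds complexes of cyclins with kinases and blocks above all Cdk2. Cdkn2a also encodes p19Arf from an upstream first exon in another reading frame, and this protein holds back Mdm2 and so stabilizes p53, which in turn activates Cdkn1a. In cultured MEFs the Cdkn2a locus and the p53 pathway are known as the main barriers to unlimited growth, and p16Ink4a and p21Cip1 serve as common markers of senescence.

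The 200 bases before the most upstream annotated start are shown for the starts that had a peak in 2 or more libraries and for Cdkn1a start 1, open in Norm-Sen alone; they are GRCm38 sequence, written 5′ to 3′ along the strand of the gene. Capitals mark the Sp and Klf box GGGCGG, the CCAAT box and the CRE TGACGTCA on either strand and, at Cdkn1a start 1, matches to the p53 consensus.
Cdkn2a p16Ink4a (chr4:89282193-89282392, minus strand): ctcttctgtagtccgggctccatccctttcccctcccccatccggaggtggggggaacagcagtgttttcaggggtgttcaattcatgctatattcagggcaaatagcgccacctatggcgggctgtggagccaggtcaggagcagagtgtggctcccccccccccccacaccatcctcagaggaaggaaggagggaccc
Cdkn2a p19Arf (chr4:89294654-89294853, minus strand): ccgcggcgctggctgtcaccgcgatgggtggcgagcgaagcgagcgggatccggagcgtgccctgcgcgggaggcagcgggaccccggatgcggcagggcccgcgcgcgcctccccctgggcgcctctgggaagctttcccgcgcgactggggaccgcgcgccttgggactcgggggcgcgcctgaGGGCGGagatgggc
Cdkn2b (chr4:89311040-89311239, minus strand): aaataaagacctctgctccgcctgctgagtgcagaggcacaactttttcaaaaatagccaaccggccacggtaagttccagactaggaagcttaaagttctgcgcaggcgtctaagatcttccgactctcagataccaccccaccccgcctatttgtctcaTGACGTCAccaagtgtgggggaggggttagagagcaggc
Cdkn2c start 1 (chr4:109667190-109667389, minus strand): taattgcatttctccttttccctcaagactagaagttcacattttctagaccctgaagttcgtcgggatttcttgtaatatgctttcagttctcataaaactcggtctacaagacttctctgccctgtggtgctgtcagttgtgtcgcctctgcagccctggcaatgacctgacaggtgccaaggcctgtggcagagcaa
Cdkn2d (chr9:21291408-21291607, minus strand): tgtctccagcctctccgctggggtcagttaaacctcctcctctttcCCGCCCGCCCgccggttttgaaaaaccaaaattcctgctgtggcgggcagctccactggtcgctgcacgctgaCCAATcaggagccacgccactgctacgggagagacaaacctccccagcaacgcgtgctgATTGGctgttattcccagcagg
Cdkn1a start 1 (chr17:29090779-29090978, plus strand): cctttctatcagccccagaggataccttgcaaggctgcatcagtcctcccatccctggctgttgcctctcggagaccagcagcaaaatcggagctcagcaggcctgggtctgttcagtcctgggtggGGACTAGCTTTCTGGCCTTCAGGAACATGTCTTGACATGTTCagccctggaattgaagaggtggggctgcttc
Cdkn1a start 2 (chr17:29093569-29093768, plus strand): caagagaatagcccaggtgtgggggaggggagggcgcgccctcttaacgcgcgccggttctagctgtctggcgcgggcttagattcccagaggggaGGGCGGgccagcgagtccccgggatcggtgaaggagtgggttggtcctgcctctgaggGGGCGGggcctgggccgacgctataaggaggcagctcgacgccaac
Cdkn1b (chr6:134920201-134920400, plus strand): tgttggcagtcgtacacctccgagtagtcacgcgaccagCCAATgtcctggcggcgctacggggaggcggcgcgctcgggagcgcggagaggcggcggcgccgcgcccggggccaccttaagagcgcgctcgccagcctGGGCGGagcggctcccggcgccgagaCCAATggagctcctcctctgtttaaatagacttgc
In the window of Cdkn1a start 1 the capitals hold a pair of overlapping matches, 1 at chr17:29090906-29090937 with no mismatch and its half-sites 12 bases apart and 1 at chr17:29090928-29090947 with 1 mismatch and adjoining half-sites.

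The depth of the 4 ATAC-seq libraries differed, and so did the number of peaks that could be called. The lists held 69122 peaks for Norm-Pro, 61408 for Norm-Sen, 47523 for Hyp-Pro and 37770 for Hyp-Imm. Read numbers had to be inferred from the spacing of the fold values, which gave a mean background per position of 1.24, 1.77, 0.956 and 0.445 reads in that order. A peak of Hyp-Imm at this background therefore usually needed at least 11.2 times the background, against 5.09 times in Norm-Sen. Each limit is the lowest step of the fold values that held at least 100 peaks. On lower steps lay 47 peaks of Hyp-Imm and 3 of Norm-Sen. These limits correspond to folds of 4.15 and 3.61, since the fold adds 1 to the reads and to the background. A second difference concerned the X chromosome, which held 1.08% of the peaks of Norm-Pro and 1.44% of Hyp-Imm but 4.44% of Norm-Sen and 4.76% of Hyp-Pro. By the file names, the low shares would be those of the immortalized and the senescent cells, and the high ones those of passage 1. The sex of the embryos is not given in the labels. Of 12 fibroblast markers, promoters of 8, 8, 7 and 4 were open from Norm-Pro to Hyp-Imm. The shares of all genes with an open promoter were 53.4%, 51.6%, 48.1% and 34.2% in that order. The fibroblast count in Hyp-Imm thus lay near the share of all genes. The fibroblast genes Col3a1 and Prrx1 had no open promoter in any library. Of the markers of other cell types, promoters were open for 2, 1, 2 and 1 of 5 epithelial markers in the same order of libraries, 2, 1, 2 and 1 of 5 endothelial markers, 1, 1, 0 and 2 of 5 blood markers, 1, 1, 1 and 0 of 4 skeletal muscle markers and 2, 1, 2 and 1 of 4 neural markers. Their part in the results below was not tested.

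With all called peaks, most CDK inhibitor genes had an open promoter in each condition. A promoter peak within 1 kb of a coding start was found at 6 of the 7 genes in Norm-Pro, where 53.4% of all protein-coding genes had one, at 5 in Norm-Sen (51.6% of all genes), at 6 in Hyp-Pro (48.1%) and at 5 in Hyp-Imm (34.2%). Cdkn2a, Cdkn2b, Cdkn2c and Cdkn2d had one in all 4 libraries, as did 25.8% of all genes. Cdkn1c had none in any, as did 34.0% of all genes. Cdkn1a lacked a peak in Hyp-Imm alone, the pattern of 12.0% of all genes, and Cdkn1b in Norm-Sen alone, the pattern of 1.45%. Peaks are given below by their fold enrichment over the background near the site in that library, the −log10 of the q-value and the share of the peaks of their own library that had a lower −log10 q, since neither fold nor q compares directly between libraries of unequal depth. With absent peaks counted as 0%, the median of this share over the 7 genes was 87.0%, 95.4%, 74.4% and 57.2% in the order of the libraries above, and over all genes it was 26.4%, 9.28%, 0% and 0%. The 7 genes have 12 separate coding starts, and 7, 6, 8 and 5 of them had a peak in the same order of libraries, against 39.4%, 37.9%, 35.2% and 24.5% of 34338 starts of all genes. With only peaks of a −log10 q of at least 5, promoters of 5, 4, 3 and 2 of the 7 genes stayed open, and Cdkn2d alone was open in all 4 libraries. The shares of all genes at this threshold were not computed.

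**Figure D1:**
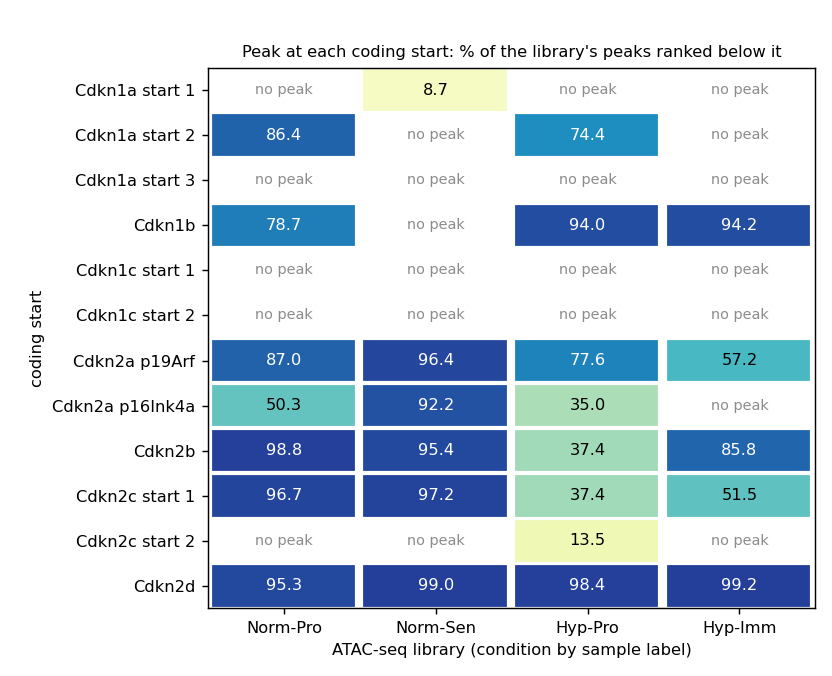
Share of the peaks of each ATAC-seq library (columns, 1 library per condition, named by sample label) with a lower −log10 q than the best peak within 1 kb of each of the 12 coding starts (rows), in percent. The Cdkn2d row lies above 95% in all 4 libraries, the p16Ink4a start of Cdkn2a reaches 92.2% in Norm-Sen and has no peak in Hyp-Imm, and both Cdkn1c starts are without a peak throughout.

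The start of p16Ink4a, the INK4 protein most tied to senescence, was most prominent in Norm-Sen and had no peak in Hyp-Imm. This start lies at chr4:89282192 on the minus strand, inside the first intron of the p19Arf transcript. Its peak had a fold of 6.25 and a −log10 q of 7.77 in Norm-Sen, above 92.2% of the peaks of that library. It had a fold of 4.40 and a −log10 q of 3.43 in Norm-Pro, above 50.3% of the list. It had a fold of 4.53 and a −log10 q of 3.33 in Hyp-Pro, above 35.0%. The Norm-Sen peak covered 493 bp with its summit 10 bp upstream of the start, where Norm-Pro had separate peaks of 216 bp and 111 bp and Hyp-Pro a single one of 114 bp. A peak in every library but Hyp-Imm was the pattern of 8.68% of all starts. Only the Norm-Sen peak passed a −log10 q of 5. By the file names, the p16Ink4a peak would be most prominent in Hyp-Pro and missing in Norm-Sen. At the depth of Hyp-Imm these p16Ink4a summits would hold at least 3.18 to 4.11 reads, and a peak there usually needed at least 5. These are lower bounds, since they take the background of the whole genome for that of the site, and at the p19Arf start, where Hyp-Imm had a peak, they were 3.93 to 4.74. The part of depth in the missing p16Ink4a peak was not tested.

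The p19Arf start of Cdkn2a, at chr4:89294653, was open in all 4 libraries. Its peak had a fold of 7.17 and a −log10 q of 10.7 in Norm-Sen and lay above 96.4% of the list. In Norm-Pro the fold was 5.33 and the −log10 q 6.08, above 87.0%. In Hyp-Pro they were 5.47 and 5.29, above 77.6%, and in Hyp-Imm 5.08 and 3.32, above 57.2%. The order by share was thus Norm-Sen, Norm-Pro, Hyp-Pro and Hyp-Imm, and none of these neighbours can be told apart without replicates. Read against the background of the whole genome, these summits held at least 8.82, 10.7, 10.1 and 14.3 times it from Norm-Pro to Hyp-Imm. On these lower bounds Hyp-Imm stood highest, and the part of depth in the order by share was not tested. The summits lay 99 to 154 bp upstream of the start in Norm-Pro, Norm-Sen and Hyp-Pro, and 82 bp downstream of it, in the untranslated part of the first exon, in Hyp-Imm. Further upstream, peaks 500 to 926 bp from the start were found in Norm-Pro, Hyp-Pro and Hyp-Imm and none in Norm-Sen, which instead had a weak peak in the gene 326 bp downstream of the start.

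Cdkn2b, which encodes an INK4 inhibitor close to p16Ink4a and is known as a target of TGF-beta, followed another order. The peak at its start, at chr4:89311039, had a fold of 9.09 and a −log10 q of 15.0 in Norm-Pro and was number 846 of the 69122 peaks there, above 98.8% of them. It had a fold of 6.41 in Norm-Sen, with a −log10 q of 9.84 and 95.4% of the list below. It had a fold of 6.17 in Hyp-Imm, with a −log10 q of 4.84 and 85.8% below, and a fold of 4.60 in Hyp-Pro, with a −log10 q of 3.43 and 37.4% below. By share, Hyp-Pro was therefore the library in which Cdkn2b stood lowest, and Hyp-Imm the one in which p19Arf did. All 4 summits lay 48 to 81 bp downstream of the start, in the untranslated part of the first exon. Norm-Sen, Hyp-Pro and Hyp-Imm had a second peak 277 to 341 bp downstream, in the coding part of the first exon, which stood above 88.6%, 36.4% and 68.8% of their lists. Norm-Pro had a single Cdkn2b peak of 391 bp. Between Cdkn2b and Cdkn2a, 7256 bp downstream of the Cdkn2b start, Norm-Sen alone had a peak with a fold of 5.41 that stood above 88.4% of its list and overlapped no annotated gene. Beyond the 3′ end of Cdkn2a, Norm-Pro and Norm-Sen had a peak in an exon of the noncoding gene Gm12606, with folds of 5.47 and 4.48.

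**Figure D2:**
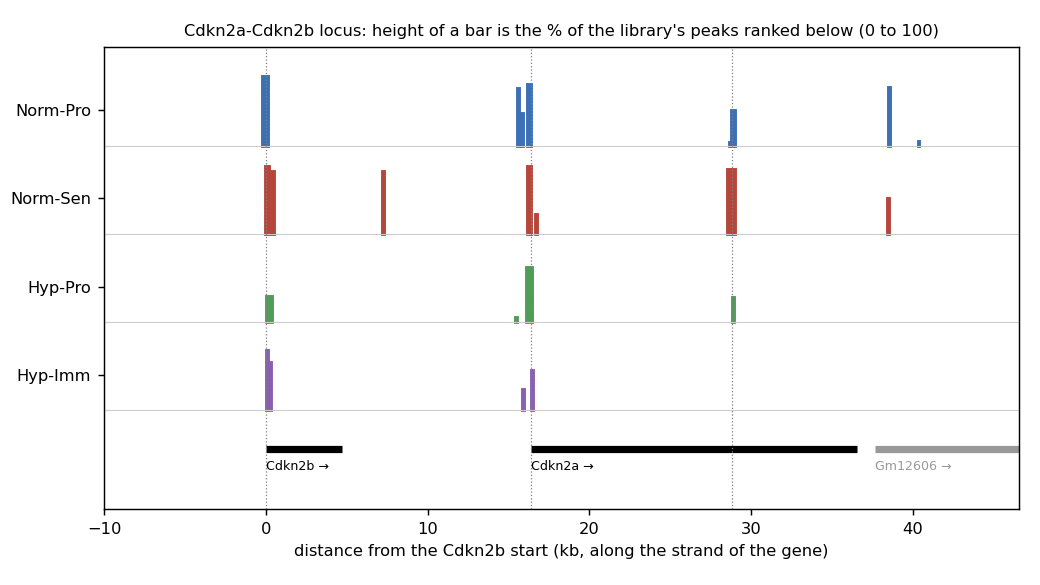
ATAC-seq peaks over the Cdkn2a-Cdkn2b interval in the 4 libraries, drawn along the direction of transcription with the distance from the Cdkn2b start in kb on the x axis; the height of a bar is the share of the library's peaks with a lower −log10 q (0 to 100% for each row), bars are widened to stay visible, and dotted lines mark, from the left, the starts of Cdkn2b, p19Arf and p16Ink4a. Peaks stand at the Cdkn2b and p19Arf starts in all 4 rows and at the p16Ink4a start in every row but Hyp-Imm.

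Cdkn2d, the gene of p19Ink4d, had the peak with the highest −log10 q of the 7 genes in Norm-Sen, Hyp-Pro and Hyp-Imm. By fold this held in Hyp-Pro and Hyp-Imm, while in Norm-Sen Cdkn2c (7.64) and p19Arf (7.17) stood higher. At its start, at chr9:21291407, the fold was 5.56 in Norm-Pro with a −log10 q of 9.72, which placed the peak above 95.3% of the list. In Norm-Sen the fold was 6.63 and the −log10 q 16.2 (99.0% below), in Hyp-Pro 7.08 and 14.2 (98.4%), and in Hyp-Imm 8.43 and 11.6 (99.2%). The Hyp-Imm peak ranked 300 of 37770. The Cdkn2d peak spanned 402 to 574 bp in all 4 libraries. A second open region, at chr9:21287899-21288272, covered the start of the neighbouring gene Kri1 and was found in Norm-Pro, Norm-Sen and Hyp-Pro at 92.7%, 93.1% and 92.8% of the lists.

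Cdkn2c was open at its upstream start, at chr4:109667189, in every library, but ranked far lower in the libraries from 3% oxygen. The fold was 7.51 in Norm-Pro, with a −log10 q of 11.3 (96.7% of the list below), and 7.64 in Norm-Sen, with a −log10 q of 11.9 (97.2% below). It was 4.76 in Hyp-Pro, with a −log10 q of 3.43 (37.4% below), and 4.94 in Hyp-Imm, with a −log10 q of 3.03 (51.5% below). By the labels, both libraries from 20% oxygen thus stood above both from 3% oxygen in fold, −log10 q and share. By the file names this order is turned around. Read against the background of the whole genome, the summits held at least 12.8, 11.4, 8.70 and 13.8 times it from Norm-Pro to Hyp-Imm. On these lower bounds Hyp-Imm stood highest, and the part of depth in the lower ranks was not tested. The peak spanned 528 and 552 bp in Norm-Pro and Norm-Sen, while Hyp-Pro had separate peaks of 247 and 139 bp and Hyp-Imm a peak of 139 bp. The second start, at chr4:109665372, had a weak peak in Hyp-Pro alone, with a fold of 4.31 and rank 40999 of 47523, a pattern that 2.80% of all starts shared. The other open regions of this interval belonged to neighbours, the noncoding 9630013D21Rik downstream and Faf1 upstream, and both were open in all 4 libraries.

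**Figure D3:**
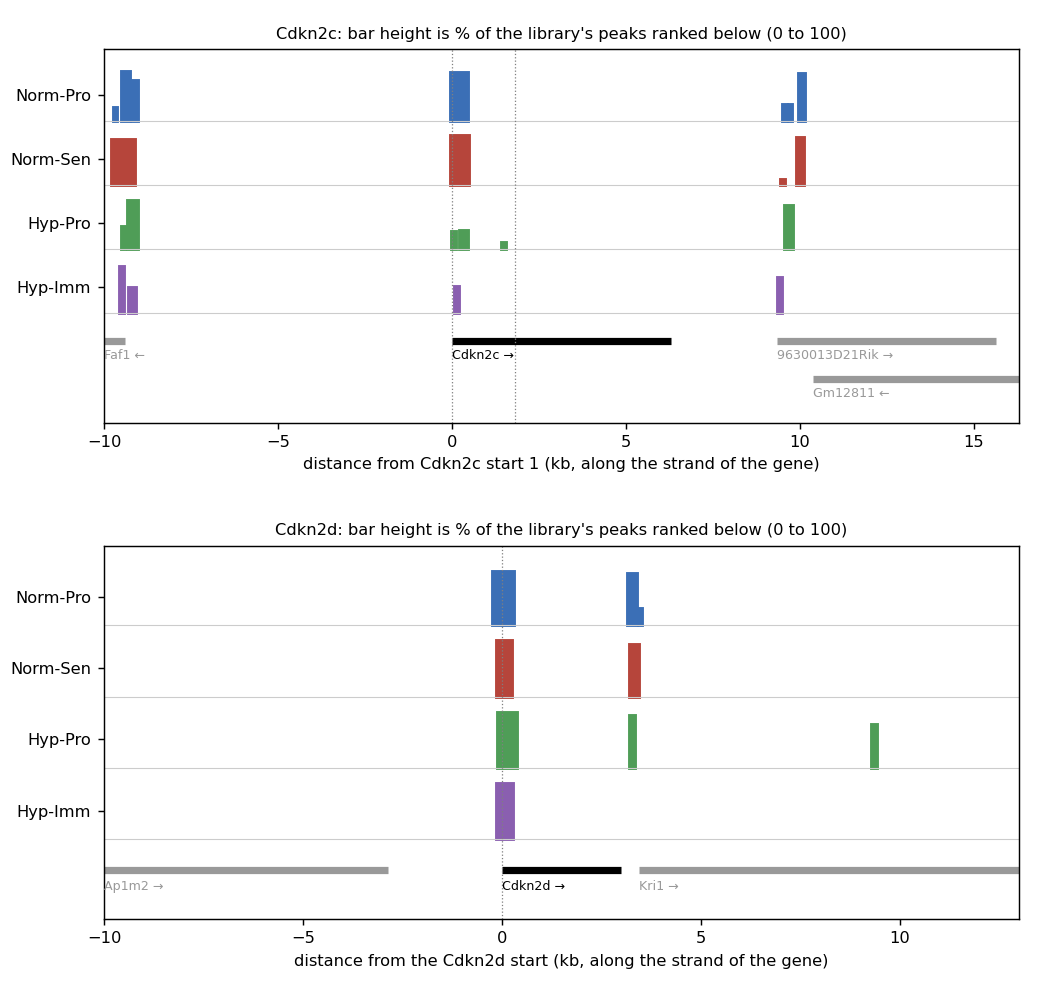
ATAC-seq peaks over the Cdkn2c interval (upper panel) and the Cdkn2d interval (lower panel) in the 4 libraries, with the distance from the upstream start of the gene in kb on the x axis; bar height is the share of the library's peaks with a lower −log10 q (0 to 100% for each row), and bars are widened to stay visible. The Cdkn2c start bar drops from 96.7% and 97.2% in the upper rows to 37.4% and 51.5% in the lower rows, whereas the Cdkn2d start bar stays above 95% in all 4.

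Cdkn1a, which encodes the p53 target p21Cip1, had different open sites in the libraries and none in Hyp-Imm. Its main start, start 2 at chr17:29093769, had a peak in Norm-Pro with a fold of 4.28 and a −log10 q of 5.91 (86.4% of the list below). It had 1 in Hyp-Pro with a fold of 4.35 and a −log10 q of 4.93 (74.4% below). By fold these peaks stood lower, at rank 41350 of 69122 in Norm-Pro and 35085 of 47523 in Hyp-Pro. Both folds lay below the median folds of their libraries (4.47 and 4.80). Neither Norm-Sen nor Hyp-Imm had a peak at start 2, and 2.22% of all starts were open in Norm-Pro and Hyp-Pro alone. An annotated antisense transcript overlaps this start, and ATAC-seq does not separate the strands. Norm-Sen alone had a peak at the upstream start 1, at chr17:29090979, where it covered chr17:29090857-29090987 with its summit 48 bp upstream of the start. This peak was weak, with a fold of 3.19 and a −log10 q of 2.57, and only 8.66% of the Norm-Sen list lay below it. A start open in Norm-Sen alone was the pattern of 3.95% of all starts. It was lost when each library was held to its 37770 best peaks. By the file names it would belong to Hyp-Pro. Both p53 matches shown above lie inside it. Of 170337 open regions of the 4 libraries, 0.0487% held a match without mismatch in their central 200 bp and 0.818% a match with at most 1 mismatch, and of the 34 open regions of the CDK inhibitor genes 1 and 2 did; the other of the latter lies at the start of Kri1. In the first intron, 1697 and 1736 bp downstream of start 2, Norm-Pro and Norm-Sen shared an open region (chr17:29095396-29095614) at 81.2% and 66.3% of their lists. By fold its peaks ranked 53635 of 69122 and 53126 of 61408. Hyp-Imm had 0 peaks in the whole Cdkn1a interval, while 63.2% of all genes had at least 1 peak in the gene or within 10 kb there. Of the libraries without a peak at start 2, Hyp-Imm was the shallowest and Norm-Sen the deepest, and the part of depth was not tested.

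Cdkn1b, the gene of p27Kip1, was open at its start in Norm-Pro, Hyp-Pro and Hyp-Imm and not in Norm-Sen. The start lies at chr6:134920401. The fold was 4.69 in Norm-Pro, with a −log10 q of 4.80 (78.7% of the list below). It was 6.60 in Hyp-Pro, with a −log10 q of 8.94 (94.0% below), and 6.74 in Hyp-Imm, with a −log10 q of 6.22 (94.2% below). Both libraries from 3% oxygen thus ranked the Cdkn1b start higher than Norm-Pro did, and by the file names the library without this peak is Hyp-Pro. The sites were not the same: the summits of Norm-Pro and Hyp-Pro lay 72 and 2 bp upstream of the start, and the Hyp-Imm peak, at chr6:134920602-134920770, overlapped neither and had its summit in the 5′ untranslated exon. Norm-Sen, which lacked this peak, was the library with the highest background of reads. Of all starts, 1.07% were open in every library but Norm-Sen. Downstream of the gene, within 1 kb of the start of the noncoding gene Lockd, Norm-Pro, Norm-Sen and Hyp-Pro had peaks, the best of them above 94.4%, 77.0% and 79.7% of the lists, and Hyp-Imm had none.

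**Figure D4:**
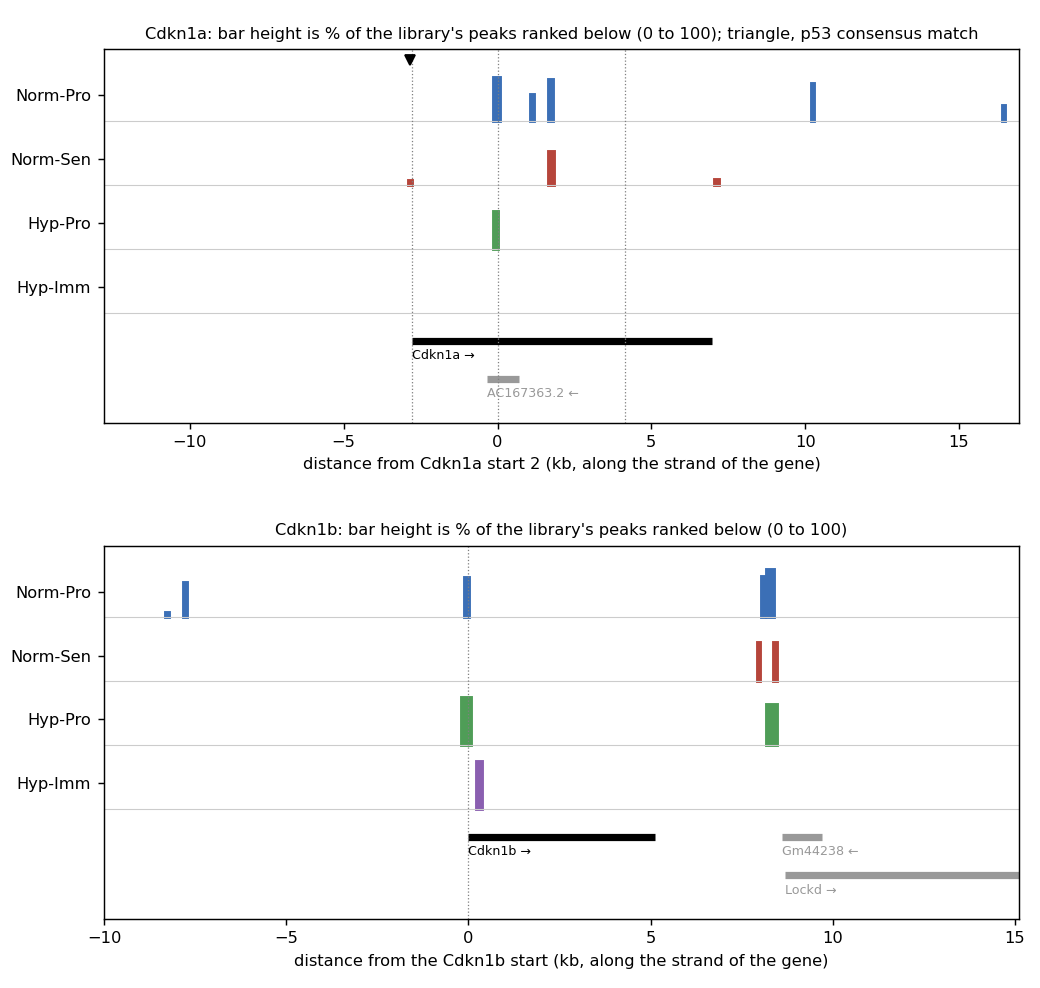
ATAC-seq peaks over the Cdkn1a interval (upper panel) and the Cdkn1b interval (lower panel) in the 4 libraries, with the distance from Cdkn1a start 2 or from the Cdkn1b start in kb on the x axis; bar height is the share of the library's peaks with a lower −log10 q (0 to 100% for each row), bars are widened to stay visible, and the triangle marks the p53 consensus match without mismatch. The Norm-Sen row has a low bar under the triangle and none at Cdkn1a start 2 or at the Cdkn1b start, and the Hyp-Imm row has no bar in the Cdkn1a panel.

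Cdkn1c, the imprinted gene of p57Kip2, had no peak at either of its starts in any library, as was the case for 48.7% of all starts. Norm-Pro had 2 peaks 3847 and 5327 bp upstream, with folds of 3.47 and 3.33 and 47.5% and 21.1% of the list below. The other libraries had 0 peaks in the Cdkn1c interval.

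Over the 6 intervals together the number of peaks fell with the number in the list. There were 30, 18, 17 and 10 peaks from Norm-Pro to Hyp-Imm in the order above, or 1.64, 0.981, 0.927 and 0.545 per 10 kb against 0.372, 0.344, 0.282 and 0.199 over all genes with the same flanks. The intervals were 22.7 to 56.6 kb long, and the values over all genes pool peaks and lengths, so that long genes weigh more. Genes of like length were not compared. At least 1 peak lay in or near 7 of the 7 genes in Norm-Pro (79.2% of all genes), 6 in Norm-Sen (77.5%) and Hyp-Pro (73.3%) each and 5 in Hyp-Imm (63.2%). Merged over the libraries they made 34 open regions, of which 14 lay at a start of a CDK inhibitor gene, 10 at the start of another gene only and 10 at no annotated start. Of the 34, 17 (50.0%) were found in 1 library alone, where 85.6% of the 170532 regions of the whole genome were, and 6 (17.6%) in all 4, where 3.09% were. These 6 were the starts of p19Arf, Cdkn2b, Cdkn2c, Cdkn2d, 9630013D21Rik and Faf1. Of the 34338 starts of all genes, 17.7% had a peak in all 4 libraries. The share of all regions that lie at a start was not computed, and its part in the sharing was not tested. In 20% oxygen, 13 of the 34 regions were open in Norm-Pro and not in Norm-Sen (31.3% of all regions of the genome) and 6 the other way (26.8%). In 3% oxygen, 8 were open in Hyp-Pro and not in Hyp-Imm (22.9%) and 2 the other way (17.5%). Between the passage 1 libraries, 13 were open in Norm-Pro and not in Hyp-Pro (32.4%) and 3 the other way (19.6%). Between the late libraries, 11 were open in Norm-Sen and not in Hyp-Imm (30.8%) and 2 the other way (17.3%). As shares of the 34 these are 38.2%, 17.6%, 23.5%, 5.88%, 38.2%, 8.82%, 32.4% and 5.88% in the same order. In each pair the library with the longer list had more regions of its own. With the 37770 best peaks of each library the intervals held 21, 14, 15 and 10 peaks. The regions of the 4 pairs then numbered 9 and 3, 7 and 3, 10 and 3, and 8 and 3 in the same order. The shares over all genes and all regions were not computed at this setting, so these counts cannot be set against the whole genome.

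**Figure D5:**
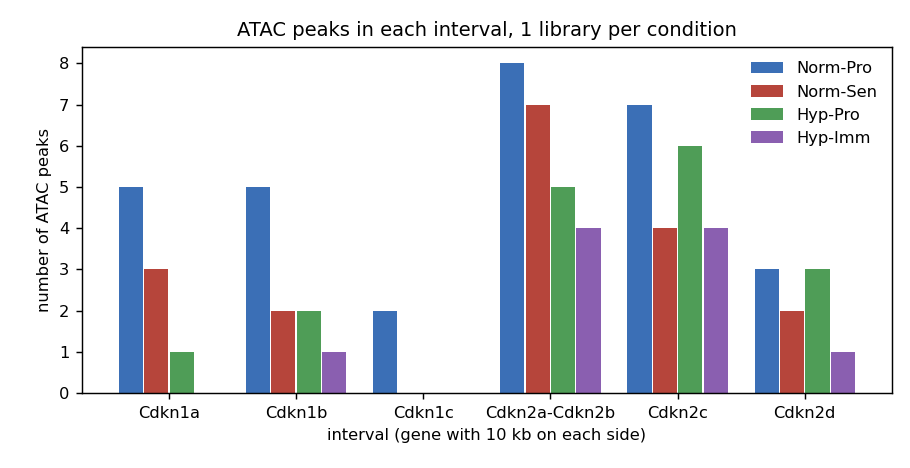
Number of ATAC-seq peaks (y axis) in each of the 6 intervals, the gene or genes with 10 kb on each side (x axis), in the 4 libraries (1 bar each, no replicates). The Cdkn2a-Cdkn2b interval holds 8, 7, 5 and 4 peaks from Norm-Pro to Hyp-Imm, and the Cdkn1a interval 5, 3, 1 and 0.

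The kinases, cyclins and regulators around the CDK inhibitors were mostly open in all libraries. Of 40 such genes, 36 had a promoter peak in Norm-Pro and 35 in Norm-Sen, against 37 in Hyp-Pro and 28 in Hyp-Imm, where the shares of all genes were 53.4%, 51.6%, 48.1% and 34.2%. The same 28 were open in all 4, as were 25.8% of all genes. Among the 9 cyclins and kinases 8, 8, 9 and 6 were open, among the 8 pocket proteins and E2F factors 8, 7, 7 and 5, among the 3 genes of the p53 branch 3, 3, 3 and 2, among the 17 regulators of the Cdkn2a-Cdkn2b locus 14, 14, 15 and 12, and all 3 genes for the degradation of CDK inhibitors were open throughout. Ccnd3 and Cdk6, which encode partners that INK4 proteins act on, the pocket protein gene Rbl2, the repressive factor gene E2f5, Trp53 (p53 itself), the Polycomb gene Cbx7 and Id1 were open in every library but Hyp-Imm, the pattern of 12.0% of all genes. The cyclin D1 gene Ccnd1 and the Polycomb gene Ring1 had a promoter peak in Hyp-Pro alone and E2f2 in Norm-Pro alone. The demethylase gene Kdm6b and the repressor gene Tbx2 had none in any library.

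Genes were also ranked by how closely the shares at their promoters followed those of each CDK inhibitor over the 4 libraries, with absent peaks as 0%. Cdkn1c, with no promoter peak, was not ranked. The closest to Cdkn1a was Dctn3, with a mean difference of 1.57 percentage points, followed by Fam92a (1.85) and Psmc3ip (2.55). For Cdkn1b they were Aldh1l2 (1.87), Hebp1 (2.45) and Wdyhv1 (2.90), for Cdkn2a Cep97 (1.54), Fdps (1.75) and Gm43738 (1.75), and for Cdkn2b Dazl (1.96), Pdzd8 (2.53) and Ufl1 (3.00). For Cdkn2c they were Mrps23 (2.33), Rbm14 (2.93) and Gm21992 (2.93), and for Cdkn2d Rtn4 (0.208) and Arl6ip6 (0.269). Within 5 points lay 1452 genes for Cdkn2d, 91 for Cdkn2a, 71 for Cdkn1a, 23 for Cdkn2b, 11 for Cdkn1b and 10 for Cdkn2c.

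No Tfcp2l1 peak lay near a CDK inhibitor gene. Of the 7 genes 0 had a Tfcp2l1 peak within 200 kb in either library, where 8.26% of all protein-coding genes had one among the 393 peaks of senescent MEFs and 12.1% among the 612 peaks of immortalized MEFs. There was none within 500 kb either. The nearest was 574 kb from Cdkn2d, near Olfm2, and 689 kb from Cdkn1c, near Shank2, both in immortalized MEFs. In senescent MEFs the nearest lay 1548 kb from Cdkn1b, and the nearest to Cdkn2a 26186 kb away. With 7 genes and these shares, a count of 0 lies near the background. The Tfcp2l1 consensus was found with at most 2 mismatches in the central 200 bp of 0 of the 34 open regions and of 0.671% of all open regions, and with at most 3 mismatches in 3 of the 34 and in 6.64%.

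The promoters of the CDK inhibitor genes also differed in their letters. In the 300-base windows of RefSeq (GRCm38, 250 bases before the start), which hold 9 windows for 6 of the 7 genes (none for Cdkn1c), CpG dinucleotides reached 1.04 of the number that the base composition gives at p19Arf and at Cdkn1b, higher than in 95.9% and 96.0% of 32851 windows. The value was 0.786 at Cdkn1a start 2, 0.722 at Cdkn2b and 0.442 at p16Ink4a, against a median of 0.384. For Cdkn2d (0.681) and Cdkn2c (0.823) the RefSeq start lies downstream of the upstream start described above, and the Cdkn2c window lies wholly downstream of it. The lowest was 0.0892 at Cdkn1a start 1, the start open in Norm-Sen alone. Within Cdkn2a, the p16Ink4a start thus had fewer CpGs than the p19Arf start. GGGCGG was found in 7 of the 9 windows and in 35.7% of all windows, CCAAT in 4 (37.4%), the E-box CANNTG in 4 (72.3%), the hypoxia response core ACGTG or GCGTG in 7 (43.8%) and the E2F box TTTNGCGC in the p16Ink4a window alone (1.38%). The hypoxia response core was present 4 times each at p19Arf and at Cdkn2c start 2, and 0 times at p16Ink4a and at Cdkn1a start 1. The E-box pattern overlaps some forms of this core. The CRE TGACGTCA was found at Cdkn2b alone (1.79% of all windows), just upstream of the start, as printed above. The AP-1 box TGANTCA (7.81% of all windows), the Ets box GGAAGTG (11.0%) and TATAAA (13.6%) were in none of the 9. A match is a string of letters and was not tested for binding.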

How the data were processed

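ATAC-seq peaks of 4 libraries and Tfcp2l1 ChIP-seq peaks of 2 libraries of MEFs were analysed, with conditions from the sample labels and 1 library per condition. For ATAC-seq the authors used Bowtie2 and the GRCm38 (mm10) genome, discarded read pairs over 2 kb apart, corrected positions for the Tn5 offset and ran MACS2 on each library (FDR below 0.05). Bowtie and MACS2 are named for ChIP-seq in the submitters' processing notes. No label gives the build of the ChIP-seq peaks, and distances assume GRCm38. The deposited fold was read as the ratio of the pileup at a summit to the local background of its library, with 1 added to each. This makes a fold smaller than the ratio of reads to background, most of all in the shallowest library. The −log10 p-value and −log10 q-value at the summit were computed by the authors with MACS2, and the deposited score, a rounded form of the latter, was not used.

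Genes and starts came from GENCODE vM21 (coding transcripts, starts within 500 bp joined), sequences from the GRCm38.p6 genome and the RefSeq promoter table. A promoter peak overlapped 1 kb on each side of a start by 1 bp or more. Overlapping or touching ATAC-seq peaks were joined into regions. Depth was read from steps of the fold values (tolerance 0.001), on which 30.9%, 22.4%, 19.6% and 24.9% of the peaks fell, from Norm-Pro to Hyp-Imm; it gives no error of a value, and no interval or test was made. Python 3.11.15 with pandas 2.3.3 and pysam 0.24.0 was used, and peak overlap and motif search were tested on simulated data. The p53 search allowed up to 13 bases between half-sites.

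The members and the lists of pathway genes, markers and motifs were chosen with earlier results of these data known. Named were all 7 members with their peaks, the pathway genes that differed between libraries or were never open, neighbours whose start lies in an interval, and the 3 genes most like each member, of which 1 is not reported here. Alternatives covered the peak threshold, equal numbers of peaks, windows, overlaps and the conditions in the file names.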

Additional observations from a re-analysis of the deposited data

Results flagged for a closer look

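The change from the early to the late library went in opposite directions in the 2 oxygen levels at 2 of the starts that were open in all 4 libraries. At the p19Arf start of Cdkn2a, the share of the list below the peak rose by 9.4 percentage points from Norm-Pro to Norm-Sen and changed by -20.4 points from Hyp-Pro to Hyp-Imm. At the Cdkn2b start it changed by -3.3 points in 20% oxygen and by 48.4 points in 3% oxygen. The other starts open in all 4 libraries, Cdkn2c start 1 (0.5 and 14.2 points) and Cdkn2d (3.7 and 0.8 points), did not change in opposite directions. The lists differ in length, and with the 37770 best peaks of each library, a setting added after the data were seen, the values were 18.3 and -14.7 points for p19Arf and -4.6 and 64.5 points for Cdkn2b. The opposite direction at Cdkn2b rests on the small value in 20% oxygen. With 1 library per condition the difference was not tested. Read by the file names, p19Arf changed by -20.4 and -9.4 points and Cdkn2b by 48.4 and 3.3 points, so that neither start then moved in opposite directions. Cdkn2c start 1 (14.2 and -0.5 points) and Cdkn2d (0.8 and -3.7 points) then did, each with small values. Read against the background of the whole genome, the p19Arf summits held at least 8.82, 10.7, 10.1 and 14.3 times it from Norm-Pro to Hyp-Imm. On these lower bounds p19Arf rose in both oxygen levels. The Cdkn2b summits held at least 15.6, 9.47, 8.37 and 17.8 times it, with opposite directions as before. The part of depth in the values of this section was not tested.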

How the results depend on the processing

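Of 98 alternative values of the counts, 72 stayed within 1.5 times the reported count and 26 did not. With peaks of a −log10 q of at least 5 alone, the intervals held 14, 10, 8 and 3 peaks from Norm-Pro to Hyp-Imm, 3 member promoters were open in Hyp-Pro and 2 in Hyp-Imm, and 6 regions were in Norm-Pro and not in Norm-Sen, 3 in Norm-Sen and not in Norm-Pro, 1 in Hyp-Imm and not in Hyp-Pro, 8 in Norm-Pro and not in Hyp-Pro and 1 in Hyp-Imm and not in Norm-Sen. With equal numbers of peaks, 3 regions were in Norm-Sen and not in Norm-Pro. When libraries took the conditions in their file names, the intervals held 17 peaks for Norm-Pro, 10 for Norm-Sen and 30 for Hyp-Imm, and the regions in 1 library and not the other were 8 for Norm-Pro without Norm-Sen, 2 for Norm-Sen without Norm-Pro, 13 for Hyp-Imm without Hyp-Pro, 5 for Norm-Pro without Hyp-Pro, 8 for Hyp-Pro without Norm-Pro, 2 for Norm-Sen without Hyp-Imm and 18 for Hyp-Imm without Norm-Sen. With 20 kb flanks, or with a stricter overlap counted on the shorter peak, 4 regions were in Hyp-Imm and not in Hyp-Pro and 4 in Hyp-Imm and not in Norm-Sen. The file-name counts follow from the exchange of conditions, while the sizes of the other changes do not follow from their settings alone. At the −log10 q threshold, member promoters went from 6 to 3 in Hyp-Pro and from 5 to 2 in Hyp-Imm. They went from 6 to 5 in Norm-Pro and from 5 to 4 in Norm-Sen. The comparison of shares between late and early libraries under other settings was added after the data were seen. By the file names, the late minus early share reversed for p19Arf (-20.4 points) and Cdkn2b (48.4) in 20% oxygen and for Cdkn2c start 1 (-0.5) and Cdkn2d (-3.7) in 3% oxygen, and by fold in place of q, or with equal numbers of peaks, no start changed direction. The count of members with a Tfcp2l1 peak stayed at 0 at 100 kb, at 500 kb and with a −log10 q of at least 10. No paired analysis was possible because each condition has 1 library. Leaving out a replicate was not possible either. Hyp-Imm was the shallowest library, and the part of depth in its missing peaks was not tested.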
